A study of Mus musculus with 30 samples.

Results

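Pisd encodes phosphatidylserine decarboxylase, and the mouse genome carries transcribed pseudogene copies of it, of which Pisd-ps1 and Pisd-ps2 were counted in these libraries. These 3 genes, of 41128 listed for each tissue, are described here across every aorta and kidney library. They were picked by name, and the copies were picked because their counts were lower in knockout than in wild-type aortae and kidneys, so that the genotype differences of the 3 genes are given below as descriptions without a test. All 3 of 3 passed the filter on low counts in both tissues, which left 14796 aorta genes and 15034 kidney genes for testing.

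The study examined whether deletion of the EGF receptor from vascular smooth muscle cells (VSMC) alters the response of vessels and kidneys to a high-fat diet. RNA was sequenced from 14 aortae (3 WT-SFD, 4 WT-HFD, 3 KO-SFD and 4 KO-HFD) and 16 kidneys (4 per group) of male mice, labelled C57Bl6J, on a standard-fat diet (SFD) or a high-fat diet (HFD) for 18 weeks. KO mice came from a cross of Egfr flox/flox C57BL/6 mice with C57BL/6N mice whose tamoxifen-inducible Cre recombinase is driven by the smooth muscle myosin heavy chain promoter (SMMHC-Cre), and WT mice carried this Cre without loxP sites. All mice of the 4 groups received tamoxifen, 1 mg per day for 5 days, and the diet began 7 days later at 6 weeks of age. Receptor deletion in VSMC and anything else inherited with the floxed allele or its flanking chromosome cannot be told apart in this design. In whole aortae and kidneys, fewer cells of a type and less RNA per cell cannot be told apart either.

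Phosphatidylserine decarboxylase sits at the mitochondrial inner membrane, where it removes the carboxyl group of phosphatidylserine (PS) and so forms phosphatidylethanolamine (PE). PE is also made in the endoplasmic reticulum by the CDP-ethanolamine pathway, and the mitochondrial route supplies much of the PE of the organelle itself. An unprocessed pseudogene arises by duplication of genomic DNA, keeps an exon structure like that of its parent, and can be transcribed without giving the parent's protein.

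Pisd (ENSMUSG00000023452, protein coding) lies on chromosome 5 (GRCm38, chr5:32736301-32785646, minus strand). Pisd-ps1 (ENSMUSG00000082286) lies at chr11:3125904-3131004 on the plus strand and Pisd-ps2 (ENSMUSG00000023795) at chr17:3076578-3084183 on the minus strand. GENCODE vM21 annotates both as transcribed unprocessed pseudogenes. Pisd-ps1 is the first of 3011 annotated genes on chromosome 11, with 0 genes ending before it. Pisd-ps2 begins 34.6 kb after the first annotated base of chromosome 17, with 5 of 2331 genes ending before it, whereas 600 genes of chromosome 5 end before Pisd. Both copies therefore sit at the annotated edge of their chromosomes and their parent does not. Egfr itself is on chromosome 11 (chr11:16752203-16918158), 13.6 Mb from Pisd-ps1.

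A transcript of Pisd-ps1 (1115 bases) and one of Pisd-ps2 (1175 bases), each of 7 exons, were aligned with a coding transcript of Pisd (2491 bases, of which 1125 are coding, in 9 exons). Over the coding part of Pisd, Pisd-ps1 was identical at 95.2% of 1112 aligned bases and Pisd-ps2 at 93.8% of 1090. The copies were identical to each other at 94.0% of 1079 aligned bases. Read in the frame of Pisd, which has 375 codons, Pisd-ps1 ran for 146 codons before its first stop, and Pisd-ps2, joined at codon 5 of the parent, for 12. The ungapped stretch of 120 coding bases, within 1 exon of each transcript, with the most differing positions is shown because it holds the bases by which a read could be placed on 1 of the 3 genes. The sequences are those of GENCODE vM21, 5′ to 3′ on the transcribed strand, and capitals mark the 10 positions at which the genes are not all alike. They lie at chr5:32739145-32739264, chr11:3129038-3129157 and chr17:3079363-3079482 of GRCm38.
Pisd: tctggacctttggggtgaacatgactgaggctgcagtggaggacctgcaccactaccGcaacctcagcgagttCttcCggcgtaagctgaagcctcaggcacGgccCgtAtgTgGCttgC
Pisd-ps1: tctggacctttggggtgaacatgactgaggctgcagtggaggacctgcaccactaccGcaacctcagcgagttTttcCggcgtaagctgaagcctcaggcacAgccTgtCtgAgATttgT
Pisd-ps2: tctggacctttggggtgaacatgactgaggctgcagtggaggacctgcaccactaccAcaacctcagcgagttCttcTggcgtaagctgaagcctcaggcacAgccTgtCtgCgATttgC
Each copy differed from Pisd at 8 of the 10 positions, and at 5 of them both copies held the same base. The differing bases gather at the 3′ end of the stretch.

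The aortae were read in pairs of 100 bases. Of the 1016 stretches of 100 bases in Pisd-ps1, 0 were found unchanged in another member, against 40 of 1076 (3.72%) in Pisd-ps2 and 40 of 2392 (1.67%) in Pisd, all shared between Pisd and Pisd-ps2. With 2 mismatches allowed, 30.9% of the stretches of Pisd-ps1, 30.1% of those of Pisd-ps2 and 15.8% of those of Pisd had a match in another member. How the authors treated reads with several matches is not given in the sources used here, so counts may have been split between the members and each member's values are uncertain to that extent. Their sum is therefore given as well. A readthrough gene, Gm20671, overlaps 1156 of the 5750 exonic bases of Pisd. It had a count of 0 in all 30 libraries.

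The values below are counts as deposited, divided by library totals corrected with TMM factors for the make-up of each library and multiplied by 1000000 (FPM). Libraries are named by group and replicate, and values within a group are listed in the order of the replicates. Total counts were 6403699 to 13052870 per aorta library and 16354880 to 28331314 per kidney library, and the members' counts in the aortae ran from 43 (Pisd-ps2, KO-SFD replicate 2) to 806 (Pisd-ps1, WT-HFD replicate 3), against 113 to 2824 in the kidneys. Myh11, a defining gene of smooth muscle, was at 4015 to 7283 FPM in the aortae and Slc34a1, a defining gene of the proximal tubule, at 5895 to 10805 FPM in the kidneys. Umod, another kidney gene, was at 0 in all 14 aortae. The smooth muscle markers Tagln and Cnn1 had a count of 0 in every library of both tissues. The p values given below measure only the spread between these libraries. In the kidney, KO-HFD replicate 1 was the highest and WT-HFD replicate 4 the lowest of its group in both copies, and the genotype, diet and interaction values of the copies and of the sum in the kidney are given with all libraries and without these.

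The targeted gene was examined first. Aortae of the WT-SFD group held 46.7, 39.5 and 54.3 FPM of Egfr, those of the KO-SFD group 26.8, 35.5 and 28.0 FPM. With HFD the WT aortae held 65.1, 57.0, 51.2 and 57.0 FPM and the KO aortae 27.5, 40.6, 39.7 and 33.4 FPM. Every KO aorta was below every WT aorta of its diet. On the log2 scale KO differed from WT by -0.64 with SFD (edgeR adjusted p = 0.547, standard error 0.17) and by -0.70 with HFD (edgeR adjusted p = 0.129, standard error 0.14). Neither passed the threshold of 0.05, although DESeq2 called Egfr on HFD (adjusted p = 0.00482). In the kidney, where smooth muscle is a small part of the tissue, Egfr was at 36.9 to 58.4 FPM in WT and 40.5 to 60.8 FPM in KO, and the groups overlapped. The counts cover the whole gene, so the exons removed by Cre cannot be separated from the others, and the kidney values do not check the genotype labels.

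In the aorta both copies were far lower in KO than in WT mice on either diet, and the parent gene was lower to a smaller degree. Pisd-ps1 was at 68.7, 67.8 and 67.0 FPM in WT-SFD aortae, whereas the KO-SFD aortae held 24.4, 14.5 and 22.0 FPM. With HFD it was at 71.3, 67.9, 84.0 and 80.7 FPM in the WT group and at 18.7, 22.4, 19.0 and 22.7 FPM in the KO group. The highest KO aorta thus lay far below the lowest WT aorta, whatever the diet. The log2 fold change of KO against WT was -1.74 (standard error 0.16) on SFD and -1.88 (standard error 0.14) on HFD, which left 0.300 and 0.272 of the WT level.

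Pisd-ps2 showed the same split at a lower level. It was at 22.2, 17.8 and 20.9 FPM in WT-SFD aortae, while KO-SFD aortae held 5.89, 5.99 and 6.07 FPM. On HFD the WT aortae held 20.2, 21.5, 20.02 and 19.8 FPM, the KO aortae 6.24, 8.45, 7.20 and 6.84 FPM. The 7 KO aortae again lay below the 7 WT aortae with a wide gap between them. The log2 fold changes were -1.76 (standard error 0.15) on SFD and -1.50 (standard error 0.12) on HFD.

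Pisd, the coding parent, was at 22.7, 16.1 and 17.2 FPM in WT-SFD and 12.9, 13.8 and 9.25 FPM in KO-SFD aortae. On HFD it was at 15.4, 14.1, 18.3 and 14.8 FPM in the WT group and at 9.90, 10.3, 9.04 and 13.0 FPM in the KO group. The groups did not overlap, but the gap was narrow, with the highest KO aorta at 13.8 FPM and the lowest WT aorta at 14.1 FPM. The log2 fold changes were -0.65 (standard error 0.19) and -0.57 (standard error 0.17). All 3 members thus had every KO aorta below every WT aorta of the same diet, as did 4.37% of all genes tested on SFD and 2.03% on HFD. Since the members were chosen for this contrast, nothing is read from that count. Both genotype comparisons called 0.0811% of the genes tested at an edgeR adjusted p under 0.05, 12 genes each.

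**Figure D1:**
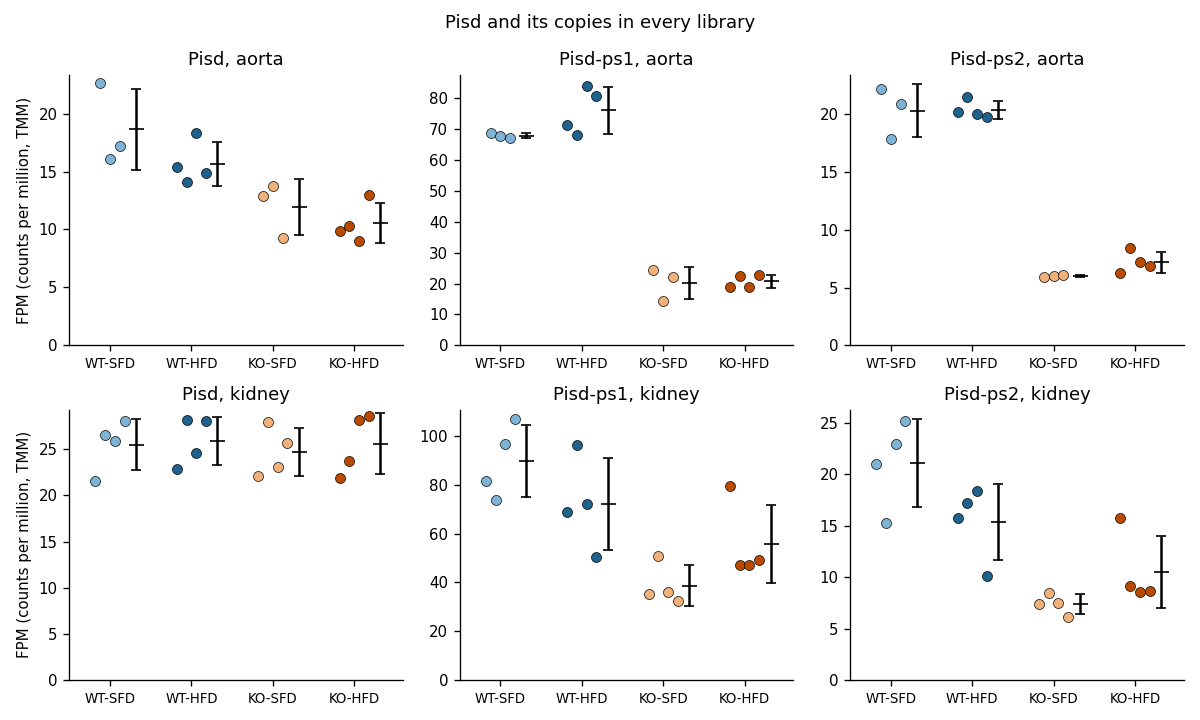
FPM of Pisd, Pisd-ps1 and Pisd-ps2 (columns) in every aorta (upper row) and kidney (lower row), by group; points are libraries, and the bar beside them is the mean with the SD (n = 3 or 4). Both copies separate the genotypes in the aorta, at 14.5 to 24.4 FPM in KO against 67.0 to 84.0 FPM in WT for Pisd-ps1, while in the kidney Pisd is level across the groups and the copies overlap on HFD.

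The sum of the 3 members does not depend on how reads were divided among them. Reads dropped for having several matches would be missing from it. The sum was 107 ± 6.09 FPM (SD, n = 3) in WT-SFD, 112 ± 8.51 (n = 4) in WT-HFD, 38.2 ± 4.50 (n = 3) in KO-SFD and 38.5 ± 4.002 (n = 4) in KO-HFD aortae. Its log2 fold change of KO against WT was -1.48 (standard error 0.12) on SFD and -1.54 (standard error 0.10) on HFD. In the counts as deposited, the lower values of the copies were not matched by higher values of the parent. Whether reads moved between the members or were dropped was not tested. Scaled by library totals instead of TMM factors, the SFD differences were smaller, -0.36 for Pisd (standard error 0.21), -1.45 for Pisd-ps1, -1.46 for Pisd-ps2 and -1.20 for the sum, and the median of all genes moved from -0.03 to 0.27.

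Per kilobase of exon (FPKM, with exonic lengths of 5750, 1757 and 2108 bases for Pisd, Pisd-ps1 and Pisd-ps2 from GENCODE vM21), Pisd-ps1 stood highest in every group of both tissues. In WT-SFD aortae it was at 38.6 ± 0.471 FPKM (SD, n = 3), Pisd-ps2 at 9.65 ± 1.07 and Pisd at 3.24 ± 0.611. In KO-SFD aortae the order was the same, with 11.6 ± 2.94, 2.84 ± 0.0425 and 2.08 ± 0.418 FPKM. In WT-SFD kidneys the levels were 51.1 ± 8.49, 10.0 ± 2.01 and 4.44 ± 0.484 FPKM (SD, n = 4). In KO-SFD kidneys Pisd-ps1 was at 22.0 ± 4.75 FPKM, Pisd at 4.29 ± 0.455 and Pisd-ps2 at 3.51 ± 0.445, and in KO-HFD kidneys Pisd-ps2 was at 4.99 ± 1.65 and Pisd at 4.45 ± 0.578 FPKM. Over the 4594 exonic bases of Pisd that Gm20671 does not cover, a length chosen after the values were seen, Pisd was at 2.60 ± 0.523 FPKM in KO-SFD aortae, 5.38 ± 0.570 in KO-SFD kidneys and 5.58 ± 0.723 in KO-HFD kidneys. The order of Pisd and Pisd-ps2 therefore depended on this length in KO-HFD kidneys, and in KO-SFD aortae they did not differ beyond their spread with it. The lengths are unions of all annotated exons, and a transcript that uses only some of them would have a higher level than given here.

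In the kidney the copies were lower in KO than in WT mice on SFD, the HFD groups overlapped, and Pisd was level throughout. Pisd-ps1 was at 81.7, 73.8, 96.8 and 107 FPM in WT-SFD and 35.2, 51.0, 36.2 and 32.3 FPM in KO-SFD kidneys. The 4 KO kidneys lay below the 4 WT kidneys, and the log2 fold change was -1.22 (standard error 0.21). On HFD, Pisd-ps1 was at 69.0, 96.5, 72.0 and 50.6 FPM in WT (50.6 in WT-HFD replicate 4) and at 79.5, 47.0, 47.0 and 49.0 FPM in KO (79.5 in KO-HFD replicate 1). The former lay just above the other 3 KO kidneys and the latter within the WT range. The log2 fold change on HFD was -0.37 (standard error 0.21), -0.59 without KO-HFD replicate 1 and -0.51 without WT-HFD replicate 4. Leaving out WT-HFD replicate 2, the highest of the WT kidneys on HFD, made it smaller, at -0.20, so that single libraries moved it from -0.59 to -0.20.

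In the kidney Pisd-ps2 had the same pattern by group as Pisd-ps1. It was at 21.0, 15.3, 23.0 and 25.1 FPM in WT-SFD and 7.43, 8.46, 7.52 and 6.17 FPM in KO-SFD kidneys, a log2 fold change of -1.51 (standard error 0.22). On HFD the WT kidneys were at 15.7, 17.2, 18.4 and 10.1 FPM and the KO kidneys at 15.7, 9.13, 8.55 and 8.70 FPM, with the WT value of 10.1 and the KO value of 15.7 in the same kidneys as before. The log2 fold change was -0.54 (standard error 0.22), -0.80 without KO-HFD replicate 1 and -0.70 without WT-HFD replicate 4, and it was smallest, at -0.45, without WT-HFD replicate 3. On SFD 2 of 3 members had every KO kidney below every WT kidney, as did 2.09% of all genes tested. On HFD this held for 0 of 3, against 0.678% of all genes. Called at an edgeR adjusted p under 0.05 were 0.0133% of genes by genotype on SFD and 0.00665% on HFD.

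Pisd was at 21.6, 26.6, 25.9 and 28.1 FPM in WT-SFD, 22.9, 28.2, 24.6 and 28.0 in WT-HFD, 22.1, 27.9, 23.1 and 25.7 in KO-SFD and 21.9, 23.7, 28.2 and 28.7 in KO-HFD kidneys. All 4 groups covered nearly the same range. The log2 fold change of KO against WT was -0.05 on SFD (95% confidence interval -0.30 to 0.20) and -0.02 on HFD (-0.27 to 0.23). Without single libraries the values ran from -0.12 to 0.00078 on SFD and from -0.077 to 0.050 on HFD. The parent gene was therefore lower in KO aortae and level in KO kidneys, though no test compared the tissues, which were sequenced at different sites and fitted apart.

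Summed over the members, the kidneys held 136.4 ± 20.3 FPM (SD, n = 4) in WT-SFD, 113 ± 22.1 in WT-HFD, 70.8 ± 11.1 in KO-SFD and 91.8 ± 17.1 in KO-HFD. By genotype the log2 fold change of the sum was -0.95 (standard error 0.16) with SFD and -0.30 (standard error 0.16) with HFD. Single libraries moved the latter from -0.45, without KO-HFD replicate 1, to -0.18, without WT-HFD replicate 2, and it was -0.40 without WT-HFD replicate 4.

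Markers of other cells and of the kidney itself also varied between these groups. Of 7 kidney epithelium genes (Slc34a1, Lrp2, Umod, Slc12a1, Slc12a3, Aqp2 and Nphs1), 3 were lower in KO than in WT on SFD at an unadjusted p under 0.05, which 8.37% of all genes had in either direction, and 0 were called by edgeR. These were Lrp2 (log2 fold change -0.40), Slc12a3 (-0.44) and Nphs1 (-0.44), with edgeR adjusted p = 0.464 or more. The list had a median of -0.24 on SFD and -0.05 on HFD, and its summed level was 14258 to 17399 FPM over all 16 kidneys with 0 genes at 0 in any of them. Of the 10 adipocyte genes named below none was called, and 1 was higher in KO on SFD at an unadjusted p under 0.05. The 10 genes had a median of 1.15 on SFD and 0.62 on HFD. They summed to 67.2 to 254.8 FPM in WT-SFD, 81.1 to 139 FPM in WT-HFD, 70.9 to 715 FPM in KO-SFD and 63.9 to 188 FPM in KO-HFD kidneys. Fabp4 was at 49.5 to 260 FPM in the kidneys, and 0 to 2 of the 10 were at 0 in a kidney. Of 3 smooth muscle genes tested 1, Smtn, was higher in KO on SFD at an unadjusted p under 0.05 (log2 fold change 0.25). The smooth muscle median was 0.24 on SFD and -0.02 on HFD. The 3 fibroblast genes had a median of 0.43 on SFD and -0.03 on HFD, with 0 at an unadjusted p under 0.05. None of these genes was called. The part of all these cells in the differences of the copies was not tested.

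The diet contrasts, which were not themselves used to choose the members, were tested next. They use the same libraries as the genotype contrasts, by which the copies were chosen, so they are not independent of that choice. In the aorta, 0 of 3 members were called by diet in either genotype, and 0% of all 14796 genes were, by edgeR at an adjusted p under 0.05. At an unadjusted p under 0.05 there were 2464 genes in WT and 1106 in KO, and DESeq2 called 666 and 8, none of them a member. Pisd-ps1 had a log2 fold change of HFD against SFD of 0.16 in WT (95% confidence interval -0.14 to 0.47, edgeR adjusted p = 0.616) and 0.02 in KO aortae (-0.30 to 0.35, edgeR adjusted p = 0.986). For Pisd-ps2 the values were 0.01 in WT (-0.26 to 0.28, edgeR adjusted p = 0.990) and 0.27 in KO (-0.03 to 0.57, edgeR adjusted p = 0.689). The 4 KO-HFD aortae had more Pisd-ps2 than the 3 KO-SFD aortae without overlap, as was the case for 3.45% of all genes. Pisd was at -0.25 in WT (edgeR adjusted p = 0.524) and -0.18 in KO (edgeR adjusted p = 0.845). The interaction, the diet effect in KO minus that in WT, was 0.07 for Pisd, -0.14 for Pisd-ps1 and 0.26 for Pisd-ps2 (edgeR adjusted p = 1.00 for each). Without KO-HFD replicate 2 it was 0.14 for Pisd-ps2, whose diet effect in KO was then 0.17. The interaction equals the genotype difference on HFD minus that on SFD, and the members were chosen by genotype. Its values in both tissues are therefore given as descriptions.

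In the kidney the copies differed by diet in opposite directions in the 2 genotypes, but no member passed the threshold. Pisd-ps1 was at 89.8 ± 14.9 FPM (SD, n = 4) in WT-SFD and 72.0 ± 18.9 in WT-HFD kidneys, a log2 fold change of -0.32 (95% confidence interval -0.76 to 0.12, edgeR adjusted p = 0.833). In KO kidneys it was at 38.7 ± 8.35 FPM on SFD and 55.6 ± 15.95 FPM on HFD, a log2 fold change of 0.52 (0.08 to 0.97, edgeR adjusted p = 0.235). In WT, Pisd-ps2 was at 21.1 ± 4.24 FPM on SFD and 15.4 ± 3.69 FPM on HFD, differing by -0.46 on the log2 scale (edgeR adjusted p = 0.623), and at 7.39 ± 0.939 and 10.5 ± 3.48 FPM in KO, a log2 fold change of 0.51 (edgeR adjusted p = 0.280). The 4 KO-HFD kidneys exceeded the 4 KO-SFD kidneys in Pisd-ps2 without overlap, which 5.02% of all genes did. Pisd differed by 0.02 in WT and 0.05 in KO, with edgeR adjusted p = 1.00 and 0.861. The sum of the members differed by -0.27 in WT (edgeR adjusted p = 0.800) and 0.37 in KO kidneys (edgeR adjusted p = 0.264). Without WT-HFD replicate 4 the former was -0.17, and without KO-HFD replicate 1 the latter was 0.22.

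The interaction in the kidney was 0.84 for Pisd-ps1 (standard error 0.30) and 0.97 for Pisd-ps2 (standard error 0.31). Neither was called (edgeR adjusted p = 1.00 for both), and the values are descriptions because the members were chosen by genotype. For the sum of the members the interaction was 0.64 (edgeR adjusted p = 1.00), 0.49 without KO-HFD replicate 1 and 0.54 without WT-HFD replicate 4. Over all genes 486 had an unadjusted p under 0.05 for the interaction, edgeR called 0 of 15034 (0%), and DESeq2 called 1. Without KO-HFD replicate 1 the interaction was 0.62 for Pisd-ps1 and 0.71 for Pisd-ps2, and the diet effect in KO was 0.30 and 0.25. Without WT-HFD replicate 4 the interaction was 0.71 and 0.81, and the diet effect in WT was -0.18 and -0.30. By diet 0.911% of all genes were called in WT and 2.3% in KO kidneys, and 0 of 3 members were in either genotype. Kidney markers differed by diet in the same KO kidneys. Of the 7 kidney epithelium genes 5 had an unadjusted p under 0.05, 3 of them higher on HFD, beside 15.8% of all genes. Slc12a3, a salt transporter of the distal tubule, was called (log2 fold change 0.71, edgeR adjusted p = 0.0127). Of the 10 adipocyte genes, whose median was -1.02, 3 were lower and 1 higher at an unadjusted p under 0.05, and Lep, the leptin gene, was called higher (4.97, edgeR adjusted p = 0.00902). Of 3 smooth muscle genes, whose median was -0.29, 1 was lower at an unadjusted p under 0.05. Of 3 endothelium and 4 leucocyte genes 1 each was higher under this limit, and none of these was called. The part of all these cells in the values of the copies was not tested.

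**Figure D2:**
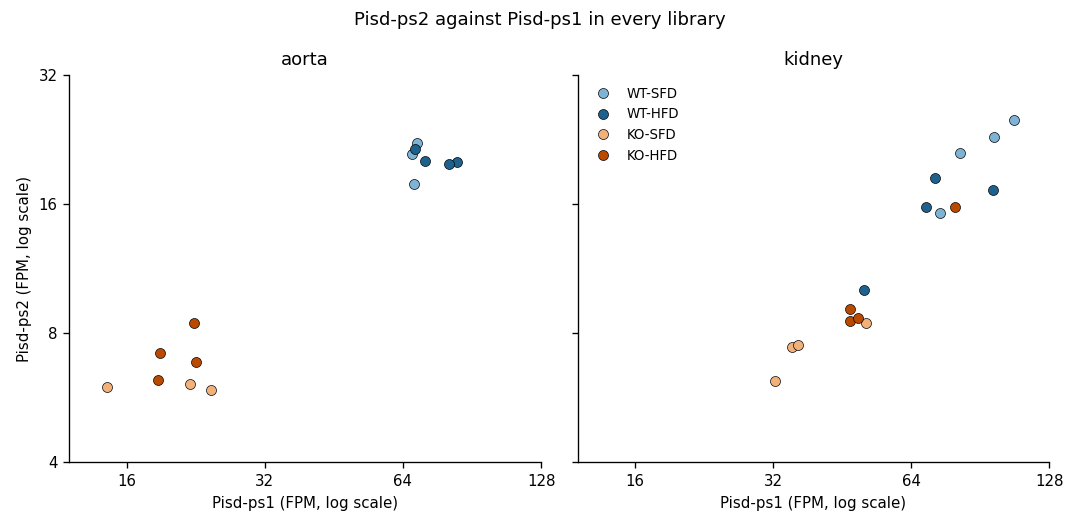
Pisd-ps2 against Pisd-ps1 in every aorta (left) and kidney (right), both in FPM on log scales; each point is a library, coloured by group. The aortae form a WT and a KO cloud with a gap between 24.4 and 67.0 FPM of Pisd-ps1, whereas the kidneys lie along a line on which KO-HFD replicate 1 (79.5 FPM) sits among the WT kidneys.

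How the copies varied together within a genotype was described next, since the genotype split alone makes them alike. Across the 8 WT kidneys the log2 values of Pisd-ps1 and Pisd-ps2 had a Pearson r of 0.90 (Spearman rho 0.83), and 0.60 without the 2 kidneys farthest from the median of Pisd-ps1. Across the 8 KO kidneys r was 0.96 (rho 0.79), and 0.90 without the farthest 2. In the aorta r was -0.18 across 7 WT libraries (rho -0.21), and 0.02 without the farthest 2, and 0.24 across 7 KO libraries (rho 0), and -0.35 without the farthest 2. The tissues were not compared by a test, and the aorta values rest on lower counts. Between Pisd and a copy, r in the kidney lay between -0.30 and 0.11 in the 4 combinations, and between -0.42 and 0.06 without the farthest 2. In the aorta it lay between -0.33 and 0.38, and between -0.28 and 0.72 without the farthest 2. The points share a library and its scaling, and reads that match both copies could add to r, which was not tested.

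The share of the copies in the summed count of the family does not depend on how a library is scaled. It was 80.0%, 84.2% and 83.7% in the WT-SFD aortae and 85.6%, 86.4%, 85.0% and 87.1% in the WT-HFD aortae. The Wilson 95% interval, which covers counting error only, was 77.2 to 82.6% for WT-SFD replicate 1 and 84.8 to 89.2% for WT-HFD replicate 4. Every WT-HFD aorta thus had a higher share than every WT-SFD aorta. The difference of the means was 3.41 percentage points (exact permutation test, two-sided, p = 0.0286, the smallest this design allows; 0.114 after Benjamini-Hochberg adjustment over the 4 diet comparisons), and so did not pass the threshold. Without WT-SFD replicate 1 the difference was 2.12 percentage points (exact permutation test, two-sided, p = 0.133). The smallest p possible without this library is 0.0667, so that this test could not pass the threshold. In KO aortae the share was 70.2%, 59.8% and 75.2% on SFD and 71.6%, 74.9%, 74.3% and 69.5% on HFD. The difference was 4.18 percentage points (exact permutation test, two-sided, p = 0.457), and -0.141 without KO-SFD replicate 2, the aorta at 59.8%.

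Adipocyte markers were lower with HFD in the same aortae, with 0 called by edgeR. In each genotype 9 of 10 had an unadjusted p under 0.05, beside 16.7% of all genes in WT and 7.47% in KO. The 10 listed genes (Adipoq, Ucp1, Cidea, Plin1, Fabp4, Lep, Retn, Cfd, Cidec and Pparg) summed to 3630, 2507 and 84.2 FPM in the WT-SFD, 98.7 to 182 FPM in the WT-HFD, 2102, 767 and 85.5 FPM in the KO-SFD and 45.1 to 133 FPM in the KO-HFD aortae. Fabp4 was at 1290 FPM in WT-SFD replicate 1, and of the 10 genes 1 was at 0 in WT-HFD replicate 1 and none in the other aortae. With the marker mean as covariate, the diet effect on Pisd was -0.098 in place of -0.25 in WT aortae and -0.026 in place of -0.18 in KO aortae. Leaving out 1 library moved it to -0.085 in WT (without WT-SFD replicate 1) and to -0.056 in KO (without KO-SFD replicate 2). Other markers differed by diet as well, with none called. The 4 smooth muscle genes tested had medians of 0.32 in WT and 0.24 in KO. At an unadjusted p under 0.05, 2 were higher in WT and 0 in KO. Under this limit 1 of 3 endothelium genes was lower in each genotype. The 2 blood genes tested had medians of 1.30 and 0.91, with 0 under this limit. Blood genes summed to 4.31 to 10.2 FPM in WT-SFD replicates 1 and 2 and KO-SFD replicate 1, against 69.1 to 361 FPM elsewhere. Beyond the fit with the covariate, the part of all these cells in the diet comparisons was not tested. By genotype the median log2 fold change of the 10 adipocyte markers was -1.10 on SFD and -0.74 on HFD. None was called and 0 had an unadjusted p under 0.05. Leucocyte and fibroblast markers differed by genotype on SFD as well, with none called by edgeR. Of 4 leucocyte genes tested 2 were higher in KO at an unadjusted p under 0.05, Ptprc (log2 fold change 1.43) and Lyz2 (0.65), with a median of 0.64. Of 3 fibroblast genes 1 was, Dcn (0.64), with a median of 0.57. Of all genes 6.14% were under this limit on SFD, in either direction. On HFD the medians were 0.23 and 0.16, with 0 at an unadjusted p under 0.05, beside 5.04% of all genes. The leucocyte genes, led by Lyz2, summed to 64.5 to 70.9 FPM in WT-SFD and 97.3 to 154 FPM in KO-SFD aortae, with 1 of 5 at 0 in every aorta. The fibroblast genes, led by Dcn, summed to 317 to 568 and 361 to 855 FPM, with 0 at 0. Their part in the differences of the members was not tested.

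In WT kidneys the share was 82.6%, 77.0%, 82.2% and 82.5% on SFD and 78.8%, 80.2%, 78.6% and 68.4% on HFD, a difference of the means of -4.62 percentage points (exact permutation test, two-sided, p = 0.114, adjusted 0.190). In KO kidneys it was 65.8%, 68.0%, 65.5% and 60.0% on SFD and 81.3%, 70.3%, 66.4% and 66.8% on HFD, a difference of 6.35 percentage points (exact permutation test, two-sided, p = 0.143, adjusted 0.190). Neither passed the threshold. Without WT-HFD replicate 4 the difference in WT was -1.92 percentage points, and without KO-HFD replicate 1 that in KO was 2.98. The lowest WT share on HFD was that of WT-HFD replicate 4 and the highest KO share that of KO-HFD replicate 1.

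**Figure D3:**
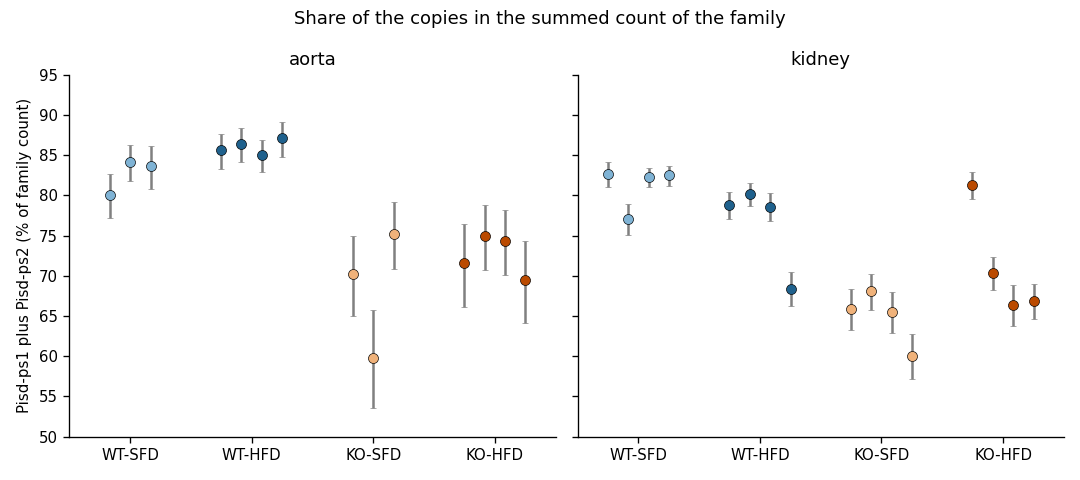
Share of Pisd-ps1 plus Pisd-ps2 in the summed count of Pisd, Pisd-ps1 and Pisd-ps2, in percent, for every aorta (left) and kidney (right) by group; the axis begins at 50%, and bars are Wilson 95% intervals, which cover counting error only. WT aortae lie at 80.0 to 87.1% and KO aortae at 59.8 to 75.2%, and kidney KO-HFD replicate 1 (81.3%) lies among the WT kidneys.

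The ratio between the copies was compared as well. Pisd-ps1 had 3.36 ± 0.383 counts per count of Pisd-ps2 (SD, n = 3) in WT-SFD, 3.74 ± 0.483 (n = 4) in WT-HFD, 3.39 ± 0.882 (n = 3) in KO-SFD and 2.90 ± 0.325 (n = 4) in KO-HFD aortae. In the kidney the ratio was 4.30 ± 0.390 in WT-SFD, 4.73 ± 0.736 in WT-HFD, 5.21 ± 0.586 in KO-SFD and 5.34 ± 0.278 in KO-HFD (SD, n = 4 each). Single aortae ran from 2.42 to 4.198 and single kidneys from 3.89 to 6.03, and the genotypes overlapped in both tissues. As both copies were chosen by genotype, this is a description only.

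The genes around each member were examined for the same genotype difference. Within 1 Mb, 21 genes near Pisd, 27 near Pisd-ps1 and 5 near Pisd-ps2 were tested in the aorta, and 19, 31 and 4 in the kidney. By edgeR at an adjusted p under 0.05 none of them was called on either diet, beside 0.0811% of all genes in the aorta and 0.0133% and 0.00665% in the kidney, and DESeq2 called none either. At an unadjusted p under 0.05 there were 0 to 2 genes per member and diet in the aorta, where 6.14% of all genes were on SFD and 5.04% on HFD. In the kidney there were 4 of 31 on SFD and 2 of 31 on HFD near Pisd-ps1, 1 of 19 and 0 of 19 near Pisd and 0 of 4 near Pisd-ps2, beside 8.37% and 1.65% of all genes. The closest neighbour of Pisd-ps1 is Sfi1, which encodes a centrosomal protein and begins 0.846 kb away in GENCODE, although the RefSeq model of Pisd-ps1 (chr11:3124002-3131945) reaches past that position. Sfi1 had a log2 fold change of -0.19 on SFD (edgeR adjusted p = 0.852) and -0.53 on HFD (edgeR adjusted p = 0.612) in the aorta, and of -0.24 (edgeR adjusted p = 0.453) and -0.18 (edgeR adjusted p = 1.00) in the kidney. These 4 values share a direction with the copies. All were above the threshold after adjustment, while the unadjusted p was 0.279 on SFD and 0.00223 on HFD in the aorta and 0.00451 and 0.0284 in the kidney, and reads from the overlap cannot be assigned here because the strand setting is not known. Scaf8, 30.8 kb from Pisd-ps2, was at 0.09 and 0.07 in the aorta and -0.14 and -0.06 in the kidney (edgeR adjusted p = 0.721 or more). Prr14l, 4.17 kb from Pisd, was at -0.0041 on SFD and 0.26 on HFD in the aorta and at -0.21 and 0.03 in the kidney (edgeR adjusted p = 0.724 or more).

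**Figure D4:**
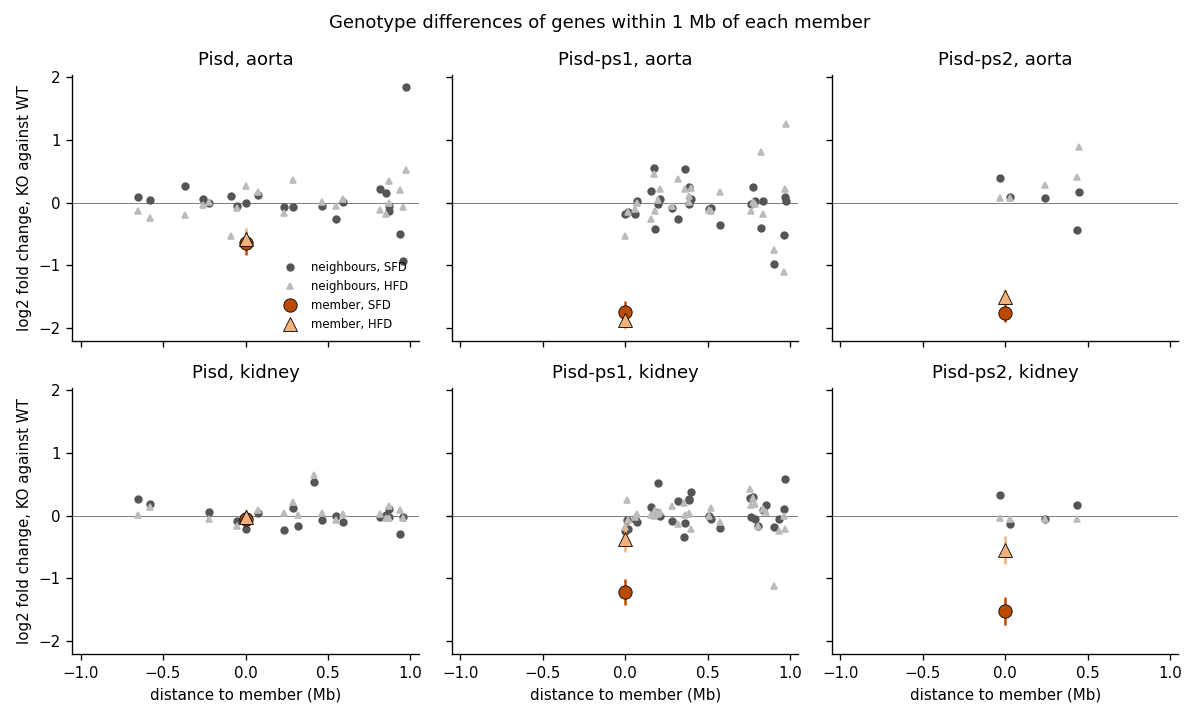
Log2 fold change of KO against WT for every tested gene within 1 Mb of Pisd, Pisd-ps1 or Pisd-ps2 against its distance in Mb from that member, in aorta (upper row) and kidney (lower row); circles are SFD and triangles HFD, and the coloured symbols at 0 are the member with its standard error. In the aorta both copies lie between -1.50 and -1.88, and no neighbour was called.

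The genes whose level was most like that of the copies were named by Pearson r of log2 CPM over all libraries of a tissue. In the aorta (n = 14) the copies came first for each other, with r = 0.97, and only 0.09 once each group was centred on its mean. Next for Pisd-ps1 were Alg10b (r = 0.91), an enzyme of N-glycan precursor assembly, Gm24245 (0.87) and Gm23935 (0.85), which GENCODE annotates as miRNA genes, and Cd59a (0.85), an inhibitor of the complement attack complex. Next for Pisd-ps2 were Alg10b (0.89), Egfr (0.88), Prrt4 (0.85) and Cd59a (0.85). Cd59a was at 63.5 FPM on average in WT and 38.3 FPM in KO aortae. The opposite pattern was strongest in Adcy1, an adenylate cyclase on chromosome 11 (chr11:7063489-7178506), with r = -0.97 for both copies, and in Gm10600 (r = -0.94 for Pisd-ps1 and -0.98 for Pisd-ps2) and Gm17167 (-0.93 and -0.96) on chromosome 4. Adcy1 averaged 6.02 FPM in WT and 280.4 FPM in KO aortae, and its log2 fold change was 5.84 on SFD and 5.38 on HFD (edgeR adjusted p = 2.92e-09 and 5.99e-10). In the kidney Adcy1 was at -1.04 and -1.42 (edgeR adjusted p = 0.453 and 1.00). With each group centred on its mean, r with Pisd-ps1 was -0.06 for Alg10b, 0.16 for Gm24245, 0.44 for Gm23935, -0.19 for Cd59a, -0.26 for Adcy1, 0.32 for Gm10600 and 0.21 for Gm17167. With Pisd-ps2 the centred r was 0.66 for Egfr, -0.46 for Alg10b, 0.21 for Prrt4, -0.28 for Cd59a, -0.43 for Adcy1, -0.53 for Gm10600 and -0.29 for Gm17167. The uncentred values include the genotype split, which the choice of members used.

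In the kidney (n = 16) the copies again came first for each other, with r = 0.97, and still 0.89 after centring on group means. Sfi1 followed for Pisd-ps1 (r = 0.79, 0.56 after centring), then Gna15 (0.76, and 0.75 after centring), a G protein subunit, Terf1 (0.76), a telomere-binding protein, and Gm11612 (0.76). For Pisd-ps2 they were Gm11612 (0.85), Terf1 (0.80), Xkr8 (0.80), a phospholipid scramblase that exposes PS on dying cells, and Sfi1 (0.77). The lowest values for Pisd-ps1 were those of 1700047I17Rik2 (-0.75), Nfe2l2 (-0.73), a regulator of the antioxidant response, and Slco2b1 (-0.73), an organic anion transporter. For Pisd-ps2 they were Cbr2 (-0.79), Sult1a1 (-0.75) and Fam177a (-0.74). After centring on group means r was 0.33 for Terf1 and for Gm11612 with Pisd-ps1, -0.26 for Nfe2l2, -0.30 for Slco2b1 and -0.73 for 1700047I17Rik2. With Pisd-ps2 it was 0.56 for Gm11612, 0.35 for Terf1, 0.28 for Xkr8, 0.52 for Sfi1, -0.21 for Cbr2, -0.15 for Sult1a1 and -0.56 for Fam177a. Many of these values thus fell once the differences between groups, which the choice of members used, were taken out. Gna15 and Gm11612 averaged 0.853 and 0.869 FPM over the 16 kidneys, so that their r rests on low counts. No gene besides the copies was on both tissues' lists.

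The other genes of PS and PE metabolism were examined as 6 lists with 38 genes, all in the files, of which 36 were tested in the aorta and 35 in the kidney. By genotype, edgeR called 0 of them on either diet in either tissue, and 0 had an unadjusted p under 0.05. For comparison, edgeR called 0.0811% of the whole table on either diet in the aorta and 0.0133% on SFD and 0.00665% on HFD in the kidney, so that 0 calls in a list of this size was the background rate. At an unadjusted p under 0.05 the shares of all genes were 6.14% and 5.04% in the aorta and 8.37% and 1.65% in the kidney. Their median log2 fold change of KO against WT was -0.16 on SFD and -0.02 on HFD in the aorta, beside -0.03 and -0.01 for all genes, and 0.03 and -0.0026 in the kidney, beside 0.0011 and 0.0022. DESeq2, and edgeR with RLE size factors, also called 0 by genotype.

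The enzymes that supply PS were not called by genotype. Ptdss1, which makes PS from phosphatidylcholine, was at 29.7 ± 1.16 FPM (SD, n = 3) in WT-SFD and 26.4 ± 2.45 FPM in KO-SFD aortae (log2 fold change -0.17, edgeR adjusted p = 0.842), and at 65.4 ± 3.97 and 64.2 ± 2.74 FPM in the kidneys (-0.03, edgeR adjusted p = 0.917). Ptdss2, which makes it from PE, differed by -0.45 in SFD aortae (edgeR adjusted p = 0.832) and by 0.10 in SFD kidneys (edgeR adjusted p = 0.771). Prelid3b and Triap1 act together in carrying PS to the inner membrane, where Pisd works. By genotype on SFD, Prelid3b was at -0.22 in the aorta and 0.09 in the kidney, and Triap1 at 0.55 and 0.15, with edgeR adjusted p = 0.692 or more in all 4.

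The CDP-ethanolamine pathway is the other source of PE. Its enzyme Pcyt2 was at 27.1 ± 10.2 FPM (SD, n = 3) in WT-SFD and 19.7 ± 9.12 FPM in KO-SFD aortae (log2 fold change -0.47, edgeR adjusted p = 0.8195), and Selenoi, which joins phosphoethanolamine to diacylglycerol, differed by 0.15 (edgeR adjusted p = 0.847). In kidneys on SFD they differed by -0.16 and -0.08 (edgeR adjusted p = 0.747 and 0.826). Crls1, which makes cardiolipin in the inner membrane, was at 25.2 ± 12.9 FPM in WT-SFD and 18.2 ± 15.4 FPM in KO-SFD aortae (log2 fold change -0.49, edgeR adjusted p = 0.861), with single aortae from 7.52 to 36.2 FPM.

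By diet, edgeR called 0 of the genes tested as well. In WT aortae 10 of 36 had an unadjusted p under 0.05, 8 of them lower on HFD, and DESeq2 called 6, against 16.7% and 4.5% of all genes tested. These were Crls1 (log2 fold change -1.63, DESeq2 adjusted p = 0.0126), Chpt1 (-1.63, DESeq2 adjusted p = 0.0157), Opa1 (-0.76, DESeq2 adjusted p = 0.00925), Chkb (-0.72, DESeq2 adjusted p = 0.0271), Pcyt2 (-0.99, DESeq2 adjusted p = 0.0278) and, in the other direction, Prelid3a (1.43, DESeq2 adjusted p = 0.0215). Their edgeR adjusted p values ran from 0.0780 to 0.0913. The adipocyte markers given above were lower on HFD in the same aortae, and their part in these values was not tested. In KO aortae 6 of 36 had an unadjusted p under 0.05, all lower on HFD, and in the kidney 1 of 35 in WT and 7 of 35 in KO. Over all genes the shares were 7.47% in KO aortae, 7.9% in WT and 15.8% in KO kidneys.

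**Figure D5:**
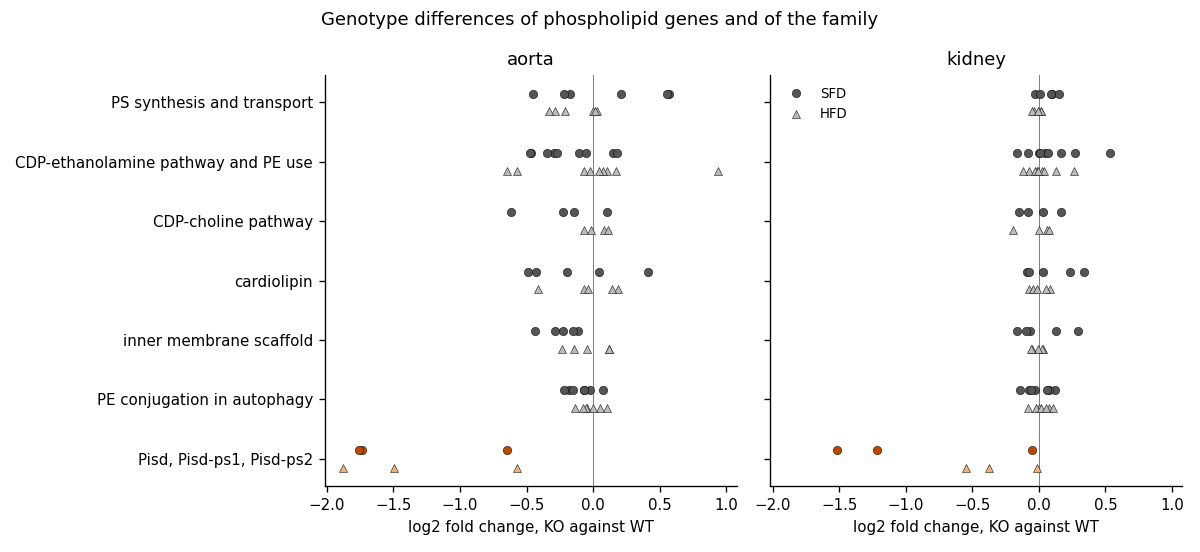
Log2 fold change of KO against WT for the tested genes of 6 phospholipid lists and for Pisd, Pisd-ps1 and Pisd-ps2, in aorta (left) and kidney (right); each symbol is a gene, circles on SFD and triangles on HFD. The copies lie below every listed gene of their tissue, at -1.50 to -1.88 in the aorta and -0.37 to -1.51 in the kidney, and 0 listed genes were called. The copies were chosen for being lower in KO, so nothing is read from this order.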

How the data were processed

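Counts per gene were deposited by the authors as 1 table per tissue, without normalisation. Per the labels and the study's methods, the authors mapped trimmed reads to mm10 with TopHat and counted them with featureCounts. Aorta reads were trimmed with cutadapt, kidney reads by the sequencing provider. Strand setting and the handling of reads with several matches are not given in the sources used here. Aortae and kidneys were sequenced at different facilities and were never fitted together. Columns without a sample numbered 0.

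The counts were analysed in R 4.3.3 with edgeR 4.0.16 (filterByExpr, TMM factors, quasi-likelihood test, 1 coefficient per group), with Benjamini-Hochberg adjustment over all genes tested and a threshold of 0.05. The code was tested on simulated data with 200 changed genes. Total counts were 6403699 to 13052870 per aorta and 16354880 to 28331314 per kidney, and the median standard error of the WT diet effect was 0.23 and 0.17 on the log2 scale. The summed count of the family was fitted as an added gene. Shares were compared by exact permutation tests, two-sided. Alternatives were RLE factors, library totals, DESeq2 1.42.0, no filter on low counts, only the groups compared, an adipocyte covariate (aorta) and leaving out each library.

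Transcripts of GENCODE vM21 were aligned with mafft 7.526. Of 41128 gene identifiers, 40254 matched GENCODE. Figures were drawn with matplotlib 3.10.9.

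The members and gene lists were chosen with earlier results of these data known. Other genes were named by rule: in each tissue the 5 with the highest and the 3 with the lowest Pearson r with each copy (log2 CPM, prior count 2), the pathway genes called or otherwise 7 fixed ones (Ptdss1, Ptdss2, Pcyt2, Selenoi, Prelid3b, Triap1 and Crls1), called neighbours within 1 Mb, Egfr and tissue markers, of which 1 is not reported here. The closest neighbours and the genes called by DESeq2 were named after their values were seen.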

Additional observations from a re-analysis of the deposited data

Results flagged for a closer look

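In 36 groups of 4 libraries, the highest or lowest library was compared with the range of its group, and 5 groups held a library that stood far from the other 3. About 1 in 20 such groups would do so by chance if they were independent. These groups reuse the same libraries, and the sum and the share are made from the members' counts. The 5 groups therefore cannot be set against that rate. Kidney KO-HFD replicate 1 was high in Pisd-ps1 (79.5 FPM) and in Pisd-ps2 (15.7 FPM). Kidney KO-SFD replicate 2 was high in the summed family, at 87.4 FPM. The share of both copies was low in kidney WT-HFD replicate 4, at 68.4%, and in kidney WT-SFD replicate 2, at 77.0%. The cause was not tested.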

How the results depend on the processing

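Outside the removal of single libraries, the genotype differences of the members and their sum in the aorta kept their direction under all alternatives run. So did those of the copies and the sum in the kidney. Pisd differed by -0.05 on SFD and -0.02 on HFD in the kidney, too near 0 for its direction to be judged. With library totals in place of TMM factors the SFD aorta differences were -0.36 for Pisd, -1.45 for Pisd-ps1, -1.46 for Pisd-ps2 and -1.20 for the sum. The same change turned the direction of 3 uncalled aorta results, the interaction of Pisd (-0.14) and the diet effect in KO of Pisd-ps1 (-0.079) and of the sum (-0.095). No diet effect or interaction of a member was called under any alternative. Egfr in HFD aortae, not called by edgeR, was called by DESeq2 (-0.70, adjusted p = 0.00482), with the adipocyte covariate (-0.72, edgeR adjusted p = 0.0428) and with only the groups compared (-0.70, edgeR adjusted p = 0.0342). DESeq2 called 6 pathway genes by diet in WT aortae, where edgeR called 0. The cause was not tested.

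Leaving out each library in turn moved these uncalled values across 0. In the aorta the interaction ran from -0.14 to 0.17 for Pisd, -0.35 to 0.0030 for Pisd-ps1 and -0.16 to 0.030 for the sum. The diet effect in KO aortae ran from -0.16 to 0.17 for Pisd-ps1 and -0.058 to 0.10 for the sum, and that of Pisd-ps2 in WT aortae from -0.080 to 0.076. In the kidney Pisd ran from -0.12 to 0.00078 by genotype on SFD, -0.077 to 0.050 by genotype on HFD, -0.051 to 0.071 by diet in WT, -0.0063 to 0.12 by diet in KO and -0.028 to 0.10 for the interaction. Egfr in kidneys ran from -0.010 to 0.17 on SFD and -0.19 to 0.025 on HFD. The diet difference in the share of the copies in KO aortae ran from -0.141 to 7.60 percentage points. No paired analysis was possible because the groups compared, which lie within a tissue, share no number in the labels. Title numbers occurring in both tissues were 3, and the tissues were not compared.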
